A study of Mus musculus with 6 samples.

Results

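The 10 genes described here are feedback targets of β-catenin: *Axin2*, *Nkd1*, *Nkd2*, *Rnf43*, *Znrf3*, *Lgr5*, *Lgr6*, *Notum*, *Apcdd1* and *Sp5*. They were chosen by gene symbol from what is known of the pathway, and all 10 were found among the 15280 genes of the expression table. This choice, like that of the gene lists below, was made with earlier results of these data known. RNA-Seq libraries came from 3 parous female BK5.ATF3 mice, in which a bovine keratin 5 promoter drives the *Atf3* transgene in basal epithelial cells. From each mouse, 1 mammary tumor (T) and the matched adjacent normal mammary gland (M) were sequenced, so n = 3 for each tissue and the libraries are M11035, M11640, M9232, T11035, T11640 and T9232. Tumors arose at an age of 6 to 12 months and were collected at a length of 1.5 cm. Both tissues carry the transgene, and no wild-type gland was compared. The libraries are of bulk tissue, in which fewer cells of a type and less RNA per cell cannot be told apart.

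In canonical Wnt signaling, a Wnt ligand binds a Frizzled receptor and an LRP co-receptor, which stops the destruction complex from marking β-catenin for breakdown. β-catenin then enters the nucleus and activates genes together with TCF/LEF transcription factors. Many of the genes activated most widely encode proteins that dampen the same pathway, so their transcripts are commonly read as a record of its activity. In skin and the mammary gland, *Axin2*, *Lgr5* and *Lgr6* are also known as markers of stem and progenitor cells.

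The stretches of 250 bases just before the annotated starts of 3 targets are shown because TCF/LEF factors act on DNA, and because the windows differ in the letters these factors recognize. They are written 5′ to 3′ on the strand of the gene, from RefSeq promoters (GRCm38.p6), and each was found exactly 1 time in mm9, the build of the expression data. The mm9 positions are chr2:70312730-70312979 on the + strand for *Sp5*, chr11:108781413-108781662 on the + strand for *Axin2* and chr13:73985080-73985329 on the − strand for *Nkd2*. Capitals mark CTTTGAT or CTTTGTT, the core letters of a TCF/LEF site, on either strand.
Sp5: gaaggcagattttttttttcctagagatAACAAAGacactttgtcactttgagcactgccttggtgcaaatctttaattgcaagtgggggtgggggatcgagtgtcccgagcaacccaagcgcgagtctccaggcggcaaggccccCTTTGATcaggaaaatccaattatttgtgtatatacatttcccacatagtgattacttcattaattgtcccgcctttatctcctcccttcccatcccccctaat
Axin2: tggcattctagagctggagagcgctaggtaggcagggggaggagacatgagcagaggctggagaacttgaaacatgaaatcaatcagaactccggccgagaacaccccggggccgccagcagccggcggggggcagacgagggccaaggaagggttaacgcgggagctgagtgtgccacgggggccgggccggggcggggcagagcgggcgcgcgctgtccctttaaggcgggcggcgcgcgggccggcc
Nkd2: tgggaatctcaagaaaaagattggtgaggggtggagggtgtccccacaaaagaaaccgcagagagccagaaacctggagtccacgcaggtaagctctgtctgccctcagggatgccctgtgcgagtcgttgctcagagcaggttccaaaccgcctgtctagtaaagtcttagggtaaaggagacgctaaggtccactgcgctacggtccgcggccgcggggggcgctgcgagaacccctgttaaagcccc

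The *Sp5* window held CTTTGAT on the strand of the gene, at positions -104 to -98 from the start, and CTTTGTT on the opposite strand, at -222 to -216. The *Axin2* and *Nkd2* windows held neither, which says only that these letters are not in these stretches. Promoters of 300 bases, from 250 before to 50 after the start, were listed for 6 of the 10 targets (7 promoters, of *Axin2*, *Nkd1*, *Nkd2*, *Rnf43*, *Lgr6* and *Sp5*). Of these 7 promoters, 1 held either motif, that of *Sp5*, against 9.33% of 32851 mouse promoters. For CTTTGAT alone, the count was again 1 of 7, against 3.73% of all promoters. GC content was 46.0% in the *Sp5* window, 69.2% in that of *Axin2* and 58.4% in that of *Nkd2*.

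The libraries held 4750989 to 7806908 fragments on genes, and values are given as CPM, the fragments of a gene per effective library size scaled to a common total. A count of 3 fragments, taken as the floor, corresponds to 0.393 to 0.610 CPM, and it covers counting error only. The glands held fat, with 8 adipocyte markers summing to between 3296 and 6442 CPM (tumors, 149 to 206.5 CPM). They also differed among themselves, since milk and luminal progenitor genes reached 41470 CPM in M9232 (2456 and 4853 CPM in the other glands) and skeletal muscle genes 3847 CPM in M11035 (1504 and 8.34 CPM in M11640 and M9232). Of the markers of these 3 lists, *Lep*, *Wap*, *Lalba*, *Ckm* and *Myl1* did not exceed the floor in any tumor.

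All 10 feedback targets were up-regulated in the tumors, and for all 10 every tumor lay above every gland. Over the whole table, limma called 14.5% of the 15280 genes up (adjusted p no higher than 0.05, fold change of 2 or more), and 27.6% of genes had every tumor above every gland. The log2 fold changes, on the log2(CPM + 0.5) scale, ran from 1.91 (*Nkd1*) to 3.61 (*Nkd2*), with a median of 2.58, where the median over all genes was -0.00. The summed level of the 10 genes was 72.7 to 79.9 CPM in the glands and 402 to 584.5 CPM in the tumors.

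**Figure D1:**
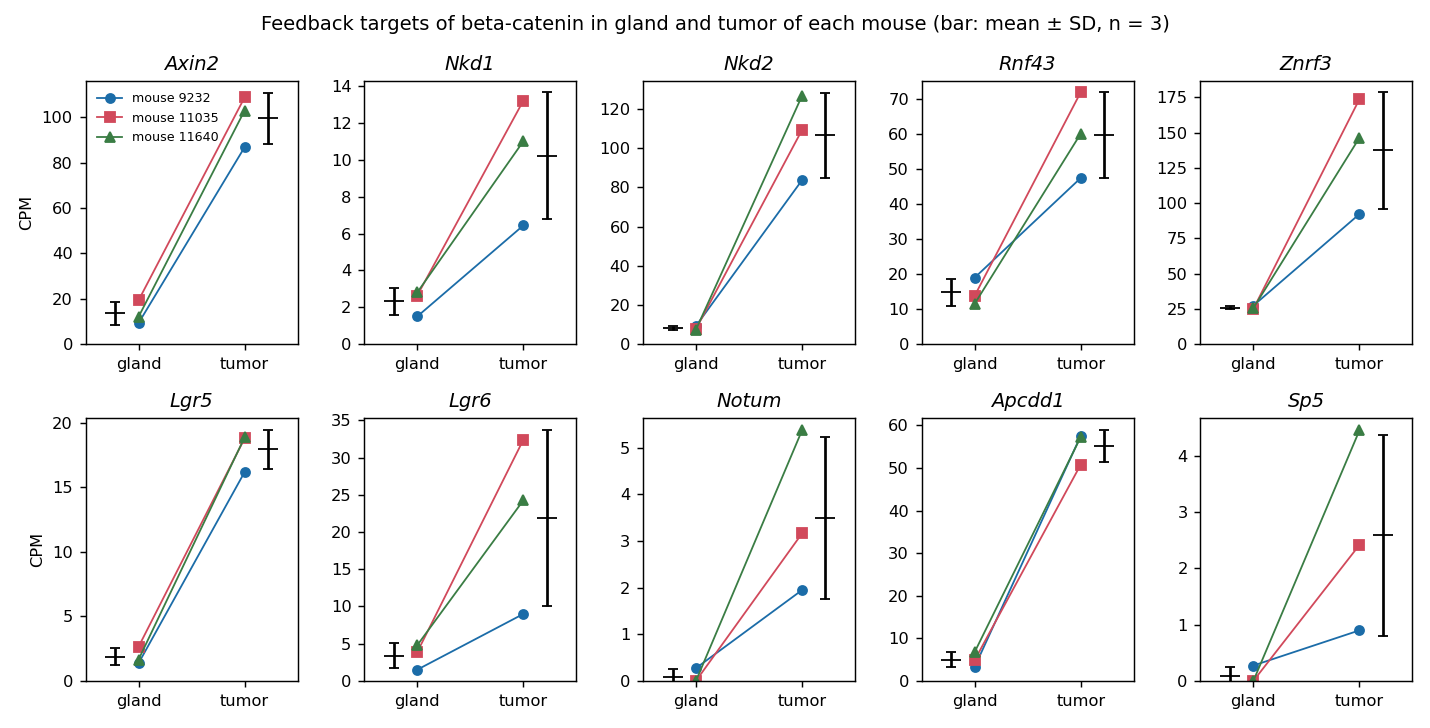
Level of each feedback target in CPM (vertical axis, from 0) in the gland and the tumor of each mouse, joined by a line, with the mean ± SD of 3 mice beside the points. All lines rise, and T9232 is the lowest tumor in 9 of the 10 panels.

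All 3 intracellular inhibitors rose, *Axin2* and *Nkd2* to far higher levels than *Nkd1*. *Axin2* (mm9 chr11:108781663-108812097, + strand), which encodes a scaffold of the destruction complex, was at 19.3, 12.1 and 9.30 CPM in glands M11035, M11640 and M9232. It was at 109, 103 and 86.8 CPM in the tumors of the same mice. The tumors lay close together and far above the highest gland. The mean rose from 13.6 ± 5.17 to 99.4 ± 11.4 CPM (SD, n = 3), a 7.33-fold change (log2 fold change 2.89 ± 0.26 SE, limma adjusted p = 5.68e-05). Its paralog *Axin1*, a scaffold of the same complex that is not known as a feedback target, was at 23.0 ± 2.80 CPM in the glands and 23.6 ± 2.34 CPM in the tumors (log2 fold change 0.04 ± 0.18 SE, limma adjusted p = 0.891). The sign of this small difference turned without M11640 (-0.07) and without T11035 (-0.02).

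*Nkd2* (chr13:73955982-73985079, − strand) encodes a Naked cuticle protein, which binds Dishevelled and blocks the signal upstream of β-catenin. It was at 7.73, 7.43 and 9.30 CPM in the glands and at 109, 127 and 83.6 CPM in the tumors. The mean rose from 8.15 ± 1.005 to 106.5 ± 21.6 CPM, 13.1-fold, the largest change of the 10 in the limma fit (log2 fold change 3.61 ± 0.20 SE, limma adjusted p = 5.92e-06). On the recovered fragments, edgeR gave *Notum* (4.80) and *Sp5* (4.37), both nearly undetected in the glands, larger log2 fold changes than *Nkd2* (3.70). The paralog *Nkd1* (chr8:91045243-91118786, + strand), of the same function, was at 2.64, 2.81 and 1.50 CPM in the glands and at 13.2, 11.01 and 6.44 CPM in the tumors. The means of *Nkd1* were 2.32 ± 0.710 and 10.2 ± 3.45 CPM, 4.41-fold apart (log2 fold change 1.91 ± 0.34 SE, limma adjusted p = 0.00234). For *Nkd1*, T9232 was well below the other tumors, but still above every gland.

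The transmembrane E3 ubiquitin ligases *Rnf43* and *Znrf3*, which remove Frizzled receptors from the cell surface, rose in every mouse. *Rnf43* (chr11:87476224-87549041, + strand) was at 13.8, 11.6 and 19.0 CPM in the glands and 72.0, 60.2 and 47.5 CPM in the tumors. Its mean rose 4.05-fold, from 14.8 ± 3.82 to 59.9 ± 12.3 CPM (log2 fold change 1.99 ± 0.23 SE, limma adjusted p = 2.61e-04). The mouse of T9232 had both the highest gland and the lowest tumor, and its own log2 difference of 1.30 was below those of the mice of T11035 (2.34) and T11640 (2.33). *Znrf3* (chr11:5176327-5344850, − strand) was at 25.0, 25.6 and 27.4 CPM in the glands, the narrowest spread of any target there relative to its mean. In the tumors it was at 174, 146 and 92.3 CPM. Its mean rose 5.29-fold, from 26.0 ± 1.22 to 137.5 ± 41.5 CPM (log2 fold change 2.33 ± 0.23 SE, limma adjusted p = 9.87e-05).

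*Lgr5* and *Lgr6* encode receptors for R-spondins, secreted proteins that with these receptors clear RNF43 and ZNRF3 from the membrane. *Lgr5* (chr10:114887367-115024836, − strand) was low in the glands, at 2.64, 1.65 and 1.37 CPM (10 to 13 fragments), and at 18.8, 18.9 and 16.2 CPM in the tumors. The tumors differed little from each other, and the mean rose 9.51-fold, from 1.89 ± 0.670 to 17.95 ± 1.53 CPM (log2 fold change 2.98 ± 0.26 SE, limma adjusted p = 5.37e-05). *Lgr6* (chr1:136882925-137001853, − strand) was at 3.86, 4.79 and 1.50 CPM in the glands and at 32.4, 24.2 and 8.99 CPM in the tumors. The mouse of T9232 was lowest in both tissues, so the difference within that mouse (log2 2.24) was close to that of the mouse of T11640 (2.23). The mean of *Lgr6* rose 6.46-fold, from 3.39 ± 1.69 to 21.9 ± 11.9 CPM (log2 fold change 2.46 ± 0.51 SE, limma adjusted p = 0.0052). *Lgr4*, the third receptor of the family, was not called (43.4 ± 10.4 and 65.6 ± 20.7 CPM, log2 fold change 0.57 ± 0.28 SE, limma adjusted p = 0.131). For *Lgr4*, T9232 was below the gland of the same mouse (log2 difference -0.28), while the mice of T11035 (1.375) and T11640 (0.61) had the higher level in the tumor. The log2 fold change of *Lgr4* was 0.84 without T9232 and 0.99 without the mouse of T9232. In both fits the limma adjusted p was under 0.05, and *Lgr4* was not called because the change stayed under 2-fold.

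Of the secreted and membrane-bound antagonists, *Apcdd1* gave the most uniform tumors. *Apcdd1* (chr18:63081981-63112849, + strand), a membrane protein that binds Wnt ligands and LRP co-receptors, was at 4.88, 6.77 and 3.28 CPM in the glands. It was at 50.8, 57.3 and 57.5 CPM in the tumors, an 11.1-fold rise of the mean from 4.98 ± 1.75 to 55.2 ± 3.82 CPM (log2 fold change 3.39 ± 0.25 SE, limma adjusted p = 2.29e-05). Here the mouse of T9232 had the lowest gland and the highest tumor, and so the largest difference of the 3 mice (log2 3.94). *Notum* (chr11:120515102-120522489, − strand), a secreted enzyme that inactivates Wnt ligands by removing their lipid, was nearly undetected in the glands, with 0, 0 and 2 fragments. In the tumors it was at 3.16, 5.37 and 1.95 CPM (71 fragments in all). The ratio of the pooled rates was 33.0 (exact binomial 95% interval 8.80 to 278, counting error only), and the log2 fold change was 2.70 ± 0.43 SE (limma adjusted p = 0.00129), a fitted value that depends on the pseudocount.

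*Sp5* (chr2:70312980-70315786, + strand) encodes a zinc finger transcription factor of the SP family that dampens other TCF/LEF targets, and its upstream window holds both motifs. It was the least abundant target in the tumors. It had 0, 0 and 2 fragments in the glands, the same as *Notum*, and 13, 34 and 6 fragments in the tumors (2.42, 4.46 and 0.899 CPM). The ratio of the pooled rates was 24.6 (exact binomial 95% interval 6.49 to 209, counting error only), and the log2 fold change was 2.24 ± 0.51 SE (limma adjusted p = 0.00811). In the mouse of T9232, the tumor exceeded the gland by 6 against 2 fragments. *Sp5* was not called without the mouse of T11035 (log2 fold change 2.08, limma adjusted p = 0.0564) or without the mouse of T11640 (1.70, limma adjusted p = 0.0906).

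**Figure D2:**
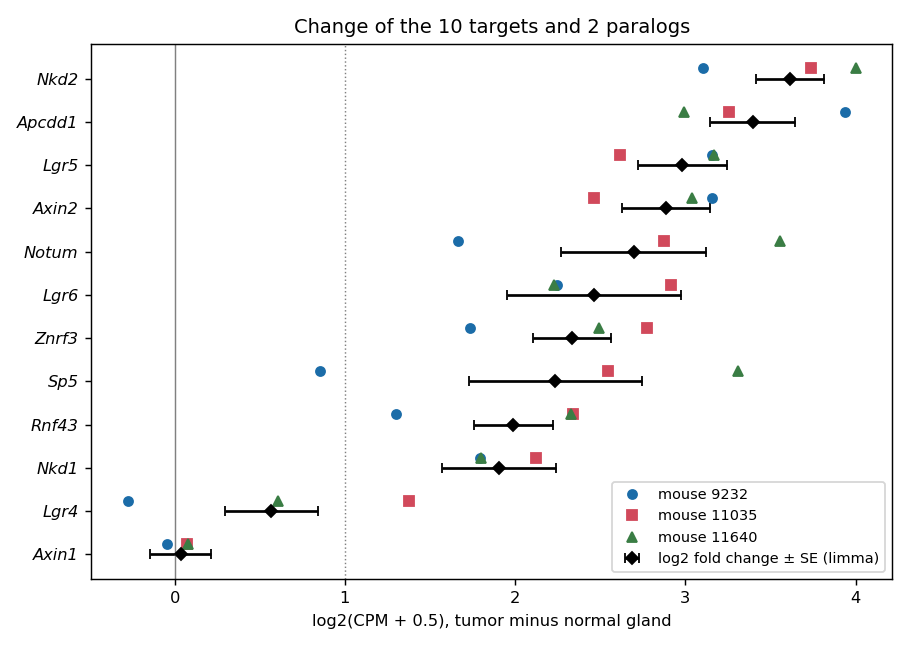
Difference of log2(CPM + 0.5) between tumor and gland in each mouse (colored points) and limma's log2 fold change ± SE (black diamonds) for the 10 targets and the paralogs *Lgr4* and *Axin1*, with the 2-fold threshold dotted. All targets lie above 1.9 in the fit, while *Lgr4* (0.57) and *Axin1* (0.04) lie below the threshold.

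Exons of *Axin2* overlap those of *Gm11670*, and exons of *Notum* those of *4732444A12Rik* and *Gm11768* in the mm9 annotation. None of these 3 genes is in the table, and without strand their reads cannot be told apart from those of the target. No other gene had a protein-coding transcript matching a target at 95% identity or more across 500 bp or more. Noncoding transcripts and pseudogenes were not searched.

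Levels of different genes were compared per kilobase of annotated exon. The exon lengths came from GENCODE vM1, while fragments were counted on RefSeq genes, so the order also depends on how the annotations match. In the tumors the order of the mean levels was *Nkd2* (22.5 ± 4.57 CPM per kb), *Apcdd1* (19.7 ± 1.36), *Axin2* (18.1 ± 2.06), *Znrf3* (17.4 ± 5.25), *Rnf43* (9.13 ± 1.87), *Lgr6* (5.75 ± 3.12), *Nkd1* (2.29 ± 0.774), *Lgr5* (1.75 ± 0.149), *Notum* (1.45 ± 0.721) and *Sp5* (1.23 ± 0.850). The ranges of neighbors in this order overlapped, except that every tumor had more *Znrf3* than any tumor had *Rnf43*. In the glands, *Znrf3* led at 3.29 CPM per kb, followed by *Axin2* (2.46), *Rnf43* (2.26), *Apcdd1* (1.78) and *Nkd2* (1.73). *Lgr6* (0.890), *Nkd1* (0.520) and *Lgr5* (0.184) were lower, and *Sp5* and *Notum* were at 0.0434 and 0.0379 CPM per kb. By mean level, *Nkd2* thus held the fifth place in the glands and the top place in the tumors. These places were not separated, since its range overlapped that of its neighbor *Apcdd1* in both tissues. The ranges of neighbors from *Znrf3* to *Nkd2* also overlapped in the glands. In the glands, the paralogs *Lgr4* (7.37 CPM per kb) and *Axin1* (6.01) stood above all 10 targets.

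Of 5 pairs of related genes compared, the difference within the pair did not overlap between tumors and glands in 3. With 3 libraries against 3, an exact permutation test cannot go below p = 0.1, so no pair could pass a threshold of 0.05. On the log2(CPM + 0.5) scale, *Axin2* minus *Axin1* moved from a mean of -0.80 in the glands to 2.05 in the tumors, a difference of 2.85 (two-sided exact permutation p = 0.1, 0.167 after Benjamini-Hochberg adjustment over 5 pairs). *Lgr5* minus *Lgr4* moved from -4.21 to -1.79, a difference of 2.41 with the same p values. *Nkd1* minus *Nkd2* moved from -1.65 to -3.36, a difference of -1.71 with the same p values, so the gap to *Nkd2* was wider in the tumors. *Rnf43* minus *Znrf3* (difference -0.34, exact permutation p = 0.2, adjusted 0.25) and *Lgr5* minus *Lgr6* (0.52, exact permutation p = 0.5) overlapped between the tissues.

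Most targets were lowest in the same tumor. T9232 was the lowest of the 3 tumors for 9 of the 10 targets, all but *Apcdd1*, whereas 33.9% of all genes and 30.5% of the genes called up had their lowest tumor in T9232. T11035 was the highest tumor for 5 targets and T11640 for 4. Relative to the mean of the other 2 tumors, T9232 had 0.262 times the level of *Sp5*, 0.318 times that of *Lgr6*, 0.456 times that of *Notum*, 0.532 times that of *Nkd1* and 0.577 times that of *Znrf3*. It had 0.709 times the *Nkd2*, 0.719 times the *Rnf43*, 0.820 times the *Axin2*, 0.859 times the *Lgr5* and 1.06 times the *Apcdd1*. The coefficient of variation over tumors ran from 6.91% (*Apcdd1*), 8.53% (*Lgr5*) and 11.4% (*Axin2*) to 54.3% (*Lgr6*) and 68.9% (*Sp5*). The highest tumor exceeded the lowest 1.13-fold for *Apcdd1*, 3.601-fold for *Lgr6* and 4.96-fold for *Sp5*.

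**Figure D3:**
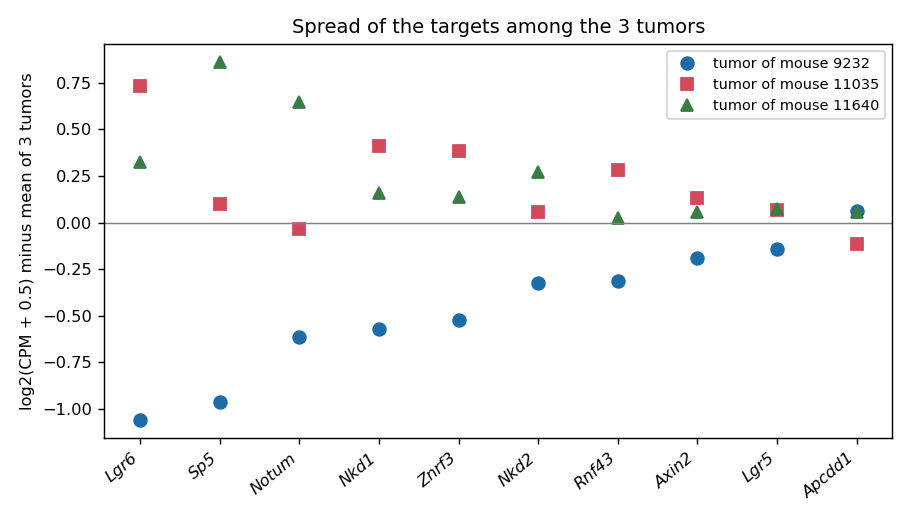
Deviation of each tumor from the mean of the 3 tumors, as log2(CPM + 0.5), for the 10 targets, ordered by the deviation in T9232. The points of T9232 run from -1.06 for *Lgr6* to 0.06 for *Apcdd1*, and only the last lies above 0.

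T9232 was also the lowest tumor in some other lists. The sums of milk and luminal progenitor genes (848, 510 and 167 CPM in T11035, T11640 and T9232) and of hormone-sensing luminal genes (152, 92.3 and 69.7 CPM) were lowest there. Summed hair follicle genes were also lowest in T9232 (1391, 2246 and 1089 CPM). So were *Ctnnb1*, which encodes β-catenin (2137, 2647 and 1776 CPM), and the sum of Wnt ligands (328, 307.5 and 279 CPM). *Wnt5a* made up most of that sum (257.5, 238 and 182 CPM). *Wnt6*, the ligand next in abundance, was highest in T9232 (21.0, 15.3 and 29.8 CPM). Summed basal epithelial genes were highest in T9232 (2584, 2991 and 3063 CPM), as were those of general epithelium (862, 1013 and 1228 CPM). Of the basal genes, *Trp63* alone was lowest in T9232 (467, 363 and 278 CPM), and it was named after its values were seen. The part of these lists and genes in the spread of the targets was not tested.

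Over the 6 libraries and the 14711 other genes averaging 1 CPM or more, the gene with the pattern most like that of *Axin2* was *Ttll12* (Pearson r = 0.9987), followed by *Lgr5* (0.9981), *Hmga2* (0.9977), *Adra2a* (0.9968) and *Atg9b* (0.9960). These correlations are a description, since all points share the split into tumor and gland. *Hmga2*, which encodes an architectural chromatin protein, rose from 2.45 ± 1.15 to 44.55 ± 4.30 CPM. *Lgr5* was thus the second of 14711 genes, and the next target was *Apcdd1* at rank 264 (0.9752). *Nkd2* (rank 370), *Nkd1* (588), *Znrf3* (599), *Rnf43* (1175), *Notum* (1450), *Lgr6* (1548) and *Sp5* (2393, r = 0.8669) followed.

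Outside the 10 targets, 43 of 95 measured pathway genes were called up and 7 down. Of all genes, 14.5% were called up and 13.7% down, which is also the share to set beside the lists below. Of 13 measured Wnt ligands, 9 were called up and 1 down, with a median log2 fold change of 2.46. Of those called up, *Wnt6*, *Wnt7a*, *Wnt10a* and *Wnt16* were at or under the floor in all glands. *Wnt6* rose from 0.291 ± 0.139 CPM (2, 2 and 1 fragments) to 22.1 ± 7.30 CPM. *Wnt5b* fell (7.32 ± 1.77 to 2.31 ± 1.24 CPM, log2 fold change -1.55 ± 0.38 SE, limma adjusted p = 0.0117). The call of *Wnt5b* was lost without the mouse of T11640 (limma adjusted p = 0.0914) and without that of T9232 (limma adjusted p = 0.0772). Both measured genes of Wnt secretion rose, *Porcn*, which attaches the lipid to Wnt ligands (log2 fold change 2.20 ± 0.30 SE), and *Wls*, which carries them to the surface (1.93 ± 0.21 SE).

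The R-spondins, ligands of *Lgr4*, *Lgr5* and *Lgr6*, moved in different directions. *Rspo3* was at 0.813, 2.48 and 0.547 CPM in the glands and at 3.54, 7.99 and 9.44 CPM in the tumors (log2 fold change 2.13 ± 0.48 SE, limma adjusted p = 0.00818). *Rspo1* was at 0.813, 2.48 and 5.47 CPM in the glands and no higher than the floor in any tumor (0.186, 0 and 0.300 CPM; log2 fold change -2.14 ± 0.55 SE, limma adjusted p = 0.0147). *Rspo4* was not called (limma adjusted p = 0.0917), with 2 fragments in the glands and 27 in the tumors. *Rspo4* was called by DESeq2 (adjusted p = 0.0413) and without T11640 (limma adjusted p = 0.0312). These calls rest on few fragments, and that of *Rspo1* was lost without the mouse of T11640, without the mouse of T9232 and without T11640, and that of *Rspo3* without the mouse of T9232. *Rspo2* is not in the table.

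Of 15 receptors and co-receptors, 8 were called up and 1 down (median log2 fold change 1.02). *Ptk7*, a Wnt co-receptor, rose from 2.58 ± 0.667 to 24.9 ± 4.22 CPM, and the Frizzled receptor *Fzd10*, at or under the floor in the glands and named after its values were seen, was at 6.21 ± 0.353 CPM in the tumors. *Fzd4*, another Frizzled receptor, fell (116 ± 41.7 to 18.3 ± 4.79 CPM, log2 fold change -2.61 ± 0.29 SE, limma adjusted p = 1.81e-04). Of 10 measured secreted antagonists, 7 were called up and 3 were not called, with a median of 2.05. *Dkk1*, which blocks LRP co-receptors, went from 0.554 ± 0.343 to 120 ± 37.6 CPM (log2 fold change 6.84 ± 0.34 SE, limma adjusted p = 3.42e-06). *Sostdc1*, another LRP antagonist, was not called (0.72 ± 0.49 SE).

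In the cascade between receptor and nucleus, the shares called up were near that of the whole table (14.5% up, with 13.7% down). Of 14 genes of Dishevelled and the destruction complex, 8 had every tumor above every gland, against 27.6% of all genes. By call, 2 of the 14 were up, 0 were down and 12 were not called, with a median of 0.36. The 2 were the casein kinases *Csnk1e* (log2 fold change 1.30 ± 0.18 SE) and *Csnk1a1* (1.02 ± 0.13 SE), the latter named after its value was seen. *Csnk1a1* fell below the 2-fold threshold without M11035 (0.97), without T11640 (0.96) and without the mouse of either (0.97 and 0.98). *Apc*, a core scaffold of the complex, was at 362 ± 32.4 and 288 ± 22.7 CPM and was not called. Of 15 genes for β-catenin, TCF/LEF factors and cofactors, 2 were called up and 2 down (median 0.11). *Ctnnb1* rose from 609.5 ± 163 to 2187 ± 438 CPM (log2 fold change 1.86 ± 0.23 SE, limma adjusted p = 3.68e-04), and the cofactor *Bcl9* rose from 22.4 ± 5.26 to 46.6 ± 8.49 CPM. The factors *Tcf7* (65.9 ± 36.4 to 24.2 ± 7.82 CPM) and *Tcf7l2* (63.8 ± 3.69 to 31.4 ± 4.49 CPM) fell, of which *Tcf7l2*, like *Bcl9*, was named after its values were seen. *Bcl9* was not called without M11035, M11640 or T11640 or the mice of T11035 and T11640 (log2 fold changes 0.82 to 0.97). *Tcf7l2* was not called without M11640, M9232, T9232 or the mouse of T9232 (-0.998 to -0.883), or at a pseudocount of 2 (-0.99). *Tcf7* was not called without M11035, T11035, T9232 or the mice of T11035 and T9232 (-1.34 to -0.92). *Tcf7* is also expressed by T cells, and 6 of 6 T cell markers fell, from a sum of 168 to 426 CPM in the glands to 25.3 to 44.05 CPM in the tumors. The part of T cells in the fall of *Tcf7* was not tested.

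Of 25 other genes known as β-catenin targets in some tissue, 13 were called up and 3 down, with a median log2 fold change of 1.14, against 10 of 10 and 2.58 for the feedback targets. *Dkk1* (log2 fold change 6.84) and *Wisp1* (5.765) rose most, and *Lef1* was not called (-0.63 ± 0.47 SE). *Wisp1* and *Lef1* were named after their values were seen. The genes called down were *Prox1*, a transcription factor of lymphatic endothelium (13.6 ± 8.07 to 2.79 ± 0.978 CPM), *Tcf7* and *Lbh*, the last named after its value was seen (log2 fold change -1.20 ± 0.38 SE). *Lbh* was not called without M11035, M9232, T11035 or T11640 or the mice of T11035 and T11640 (-1.38 to -0.70), or with no mean-variance trend in limma (adjusted p = 0.0594). *Dkk1*, *Tcf7*, *Lef1* and *Axin1* stand in 2 of the lists.

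**Figure D4:**
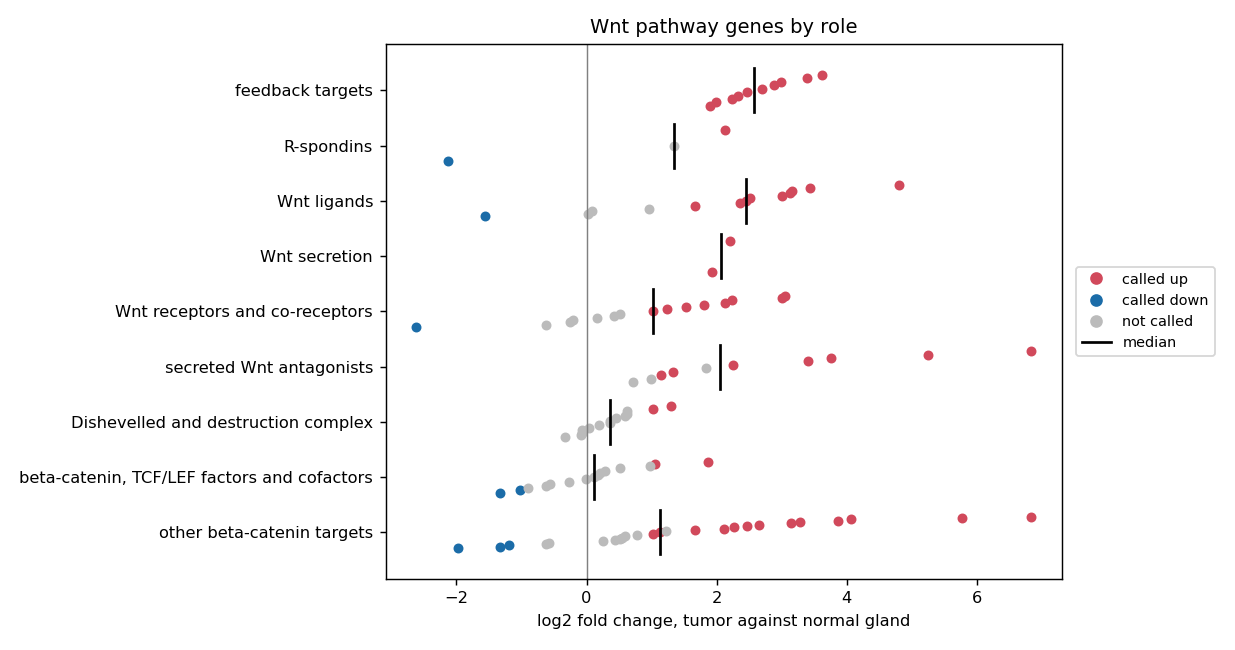
Log2 fold change (tumor against gland, horizontal axis) of each measured gene of the pathway lists, with the median of each list as a bar. All feedback targets lie at 1.9 or above, while genes of Dishevelled and the destruction complex lie around a median of 0.36.

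Markers of basal and other epithelium, collagens and epidermal and hair follicle genes rose beside the targets. Of 8 basal epithelial markers, 8 rose, and their sum went from 235 to 369 CPM in the glands to 2584 to 3063 CPM in the tumors (*Krt5* from 24.55 to 986 CPM and *Itga6* from 205 to 629 CPM on average). Of 10 general epithelial markers, 7 rose and 3 were not called, and their sum went from 240 to 518 CPM to 862 to 1228 CPM (*Cdh1* from 77.5 to 374 CPM, *Epcam* from 151 to 211 CPM, not called). Of 9 fibroblast markers, 4 rose and 5 were not called, with sums of 991 to 3730 CPM and 8564 to 9223 CPM (*Col3a1* from 618 to 3037 CPM, *Col1a2* from 241 to 2912 CPM). The fibroblast markers *Pdgfra* (266 and 221 CPM), *Dcn* (720.5 and 631 CPM) and *Fap* (47.6 and 46.4 CPM), named after their values were seen, were not called. *Lum* (log2 fold change 1.19) and *Thy1* (0.78) were not called either, but their means were higher in the tumors. Beside the collagens, *Pdgfrb* was called up (log2 fold change 1.56). Of 8 suprabasal epidermal genes, 8 rose (16.5 to 16.8 CPM in sum against 2297 to 4303 CPM), led by *Krt10* and *Dsc1*. Of 16 hair follicle genes, 16 rose (3.15 to 7.52 CPM in sum against 1089 to 2246 CPM). They were led by *Tchh* and *Krt73*, and 14 of the 16 were at or under the floor in all glands. The part of these cell types in the rise of the targets was not tested.

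Among the other lists, 8 of 8 adipocyte markers, 8 of 8 milk and luminal progenitor genes, 5 of 5 B cell markers and 2 of 6 skeletal muscle genes fell, and none of these rose. Hormone-sensing luminal genes rose in 2 cases and fell in 4 of 7, contractile genes rose in 1 and fell in 3 of 7, and endothelial genes fell in 2 of 6. Of 5 macrophage markers, 0 were called by limma, 0 had an unadjusted p under 0.05 and 0 were called by edgeR or DESeq2, and of 4 neutrophil markers, 4 rose.

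Set against the sum of general epithelial markers in the same library, 5 of the 10 targets (*Nkd2*, *Lgr5*, *Apcdd1*, *Notum* and *Sp5*) were still higher in every tumor than in any gland, and the other 5 overlapped, where 5.83% of all genes were higher in every tumor on that scale. Per 1000 CPM of these markers, *Apcdd1* was at 16.5 ± 8.92 CPM in the glands and 54.1 ± 6.41 CPM in the tumors, and *Nkd2* at 25.1 ± 7.10 and 107 ± 33.4 CPM. *Axin2* overlapped, at 46.4 ± 31.6 and 99.4 ± 27.8 CPM. Set against the basal epithelial sum, 0 targets were higher in every tumor (2.95% of all genes) and 8 overlapped, such as *Axin2* (48.1 ± 30.1 and 34.9 ± 6.88 CPM) and *Apcdd1* (16.8 ± 6.83 and 19.2 ± 0.439 CPM). *Rnf43* (48.6 ± 12.0 and 21.2 ± 6.25 CPM) and *Znrf3* (86.3 ± 17.6 and 48.8 ± 18.6 CPM) were lower in every tumor on that scale, as were 91.1% of all genes. Set against the fibroblast sum, 3 targets (*Nkd2*, *Apcdd1* and *Notum*) were higher in every tumor (3.83% of all genes) and 7 overlapped. These ratios were not tested, and *Notum* and *Sp5* rest on 2 gland fragments each.

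**Figure D5:**
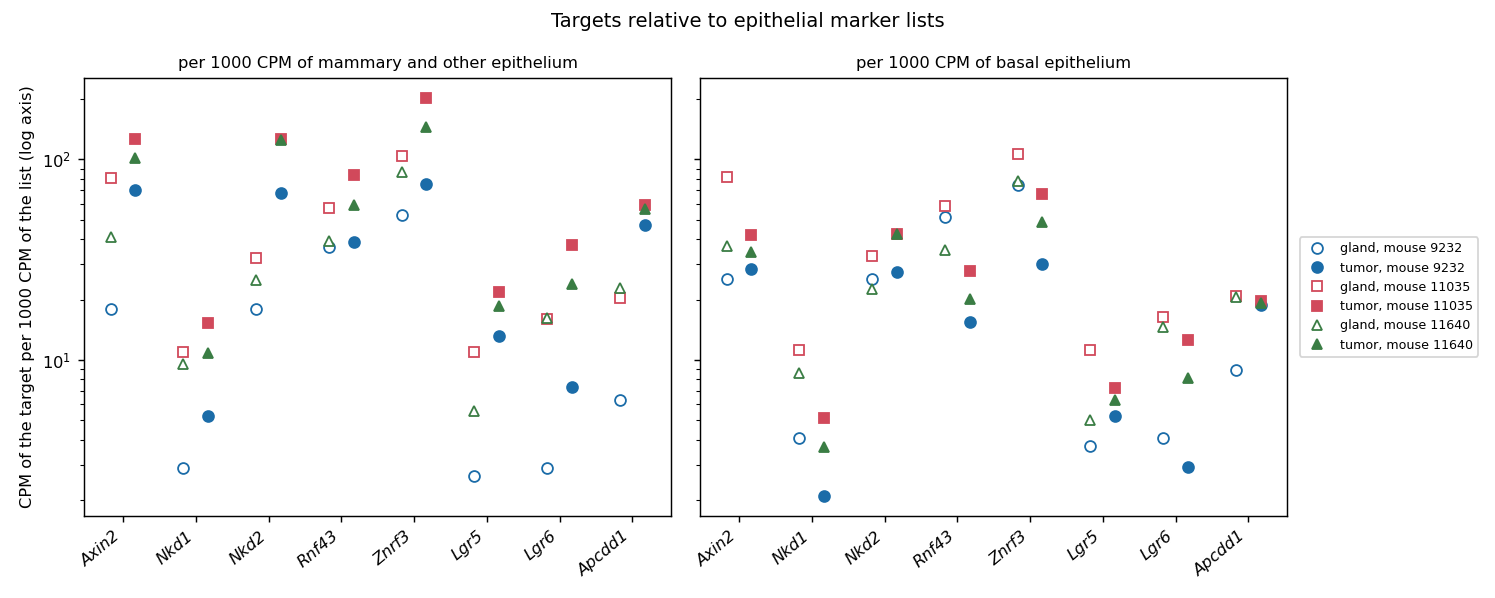
CPM of 8 targets per 1000 CPM of general epithelial markers (left) and of basal epithelial markers (right) in each library, on a log axis. *Notum* and *Sp5* are left out because they are at 0 in 2 glands. Against general epithelium the tumors lie higher for *Nkd2*, *Lgr5* and *Apcdd1*, and against basal epithelium they lie lower for *Rnf43* and *Znrf3*.

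*Atf3*, whose transgene all mice carry, was at 4.47, 8.09 and 22.6 CPM in the glands and at 13.4, 18.3 and 19.3 CPM in the tumors. These values do not separate the transgene from the endogenous gene. M9232 was higher than every tumor, so the groups overlapped and the gene was not called (log2 fold change 0.80 ± 0.49 SE, limma adjusted p = 0.22). It was called without M9232 (1.41) and without the mouse of T9232 (1.31). For all 10 targets, by contrast, M9232 stayed below every tumor.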

How the data were processed

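RNA-Seq data of 3 tumors and the 3 matched adjacent glands of BK5.ATF3 mice were used, all 6 libraries, with 0 per-sample columns left out. Libraries were made with the NuGEN Ovation RNA-Seq System V2 kit. Per the submitters' processing notes and the study's methods, CASAVA 1.8.2, TopHat2 2.0.3 (mm9) and HTSeq were used, fragments were counted per RefSeq gene, and genes under 10 fragments in all samples were removed. The authors deposited a normalized expression signal per gene, the CPM on the effective library size of edgeR 3.6.1. Fragments could be recovered, since 100% of each library's values came out whole (tolerance 0.001 fragments).

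The test was limma 3.58.1 in R 4.3.3 (two-sided, with eBayes trend, no block) on values of log2(CPM + 0.5), with Benjamini-Hochberg adjustment over all 15280 genes. Following the study's thresholds, a call needed an adjusted p no higher than 0.05 and a fold change of 2 or more. The values were recorded as a signal and not as CPM because the columns do not sum to a common total, which takes the same test. Alternatives were edgeR 4.0.16 and DESeq2 1.42.0 on the recovered fragments, other pseudocounts (0.1, 1 and 2), a filter at a mean of 1 CPM, no trend, plain library totals, each library or mouse left out, and the mouse as a block. The procedures were tested on simulated data. Tumor and gland of 1 mouse share an animal, which pairs them. Across 14712 genes, the correlation of their deviations from the tissue means was 0.107, 0.151 and 0.0168 for the mice of T11035, T11640 and T9232. No library was a copy of another (lowest chi-square per degree of freedom within a tissue 12.96).

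The members, the pathway lists and the cell type lists were chosen with earlier results of these data known. Named are the 10 targets, *Axin1* and *Lgr4*, the highest and lowest gene of each pathway list, the R-spondins, the 5 genes most correlated with *Axin2*, leading cell type markers and *Atf3*. Gene positions and exon lengths came from GENCODE vM1 on mm9, which matched all 10 targets and both paralogs, and promoters from RefSeq.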

Additional observations from a re-analysis of the deposited data

How the results depend on the processing

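All 10 targets were called up by edgeR, DESeq2 and limma under the other pseudocounts, without a trend, with the filter, with plain library totals and without any single library, and 9 were called without the mouse of T11035 or that of T11640, where *Sp5* was lost. Of 190 values of the targets under these alternatives, 188 kept their direction and side of the threshold and 2 did not. With the mouse as a replicate block, the counts were 2205 genes up and 2093 down over the whole table (2212 and 2097 without it), 10 targets up, and 44 pathway genes up and 7 down. The block changed the call of no target, and in paired form the exact p of the paralog differences cannot go below 0.25. When libraries or mice were left out, the count of genes up ran from 1678 to 2237 and of genes down from 1502 to 2137, that of targets from 9 to 10, that of pathway genes up from 35 to 43 and of pathway genes down from 3 (without the mouse of T9232; 4 without the mouse of T11640) to 6. When single libraries were left out, the difference *Axin2* minus *Axin1* ran from 2.56 to 3.09, *Lgr5* minus *Lgr4* from 2.10 to 2.83, *Nkd1* minus *Nkd2* from -2.03 to -1.52, *Lgr5* minus *Lgr6* from 0.06 to 0.85 and *Rnf43* minus *Znrf3* from -0.49 to -0.19. *Axin1*, which was not called, ran from -0.0652 to 0.117. Depth limits *Sp5* and *Notum*, whose log2 fold changes ran from 1.06 (pseudocount 2) to 4.64 (DESeq2) and from 1.35 to 5.05.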
